A study of Mus musculus with 48 samples.

Results

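The 33 genes described here carry glucose into the cell, break it down to pyruvate and lactate, or sense and answer low oxygen. They were chosen by name as the rows of the count table whose gene symbol stands in a list of transporters, glycolytic enzymes and hypoxia genes, and 33 of 33 were found among the 24411 genes of the table. The list was drawn up with earlier results of these data known. All 33 passed the filter on low counts, which 12634 genes passed. RNA was taken from macrophages of the airspaces, collected by lavage of the lungs of 24 male mice. Of these, 12 were wild type (WT) and 12 were Siglec-F knockouts (KO), which lack the sialic acid-binding receptor encoded by Siglecf. Each genotype was sampled naive, after saline and marked day 0, or 7, 14 or 21 days after bleomycin at 2.5 units/kg into the trachea, with 3 mice in each of the 8 groups. Bleomycin injures the lung epithelium and is used in mice to bring on inflammation and later fibrosis. The labels give the knockout by the name of the gene only. The labels do not say how macrophages were isolated from the lavage, nor whether the mice of a group shared a litter or an experiment day. The p-values therefore measure the spread between these mice.

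Glycolysis splits glucose into pyruvate and yields ATP without oxygen. Lactate dehydrogenase turns pyruvate into lactate and restores the NAD+ that the pathway needs, and lactate leaves the cell through monocarboxylate transporters. HIF-1, a dimer of Hif1a and Arnt proteins, is held low in oxygen because prolyl hydroxylases such as Egln1 and Egln3 mark Hif1a protein for the ubiquitin ligase that contains Vhl. Stable HIF-1 turns on many of the enzymes and transporters listed here, and it is also raised in macrophages by inflammatory signals. Resident alveolar macrophages live in a compartment rich in oxygen and poor in glucose and draw on lipids, whereas macrophages recruited from blood monocytes are known for higher glycolysis.

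The table held 24877055 to 47457084 counts per mouse, and the 33 genes together took 0.928 to 1.32% of them. Siglecf had 2631 to 20368 counts in WT mice and 0 to 25 in KO mice, as labelled. The 8 pan macrophage markers, such as Cd68 and Lyz2, summed to 30305 to 34204 CPM (counts scaled to the same library total) in naive WT mice and to more in the WT bleomycin mice, up to 69362 CPM. Markers of resident alveolar macrophages, summed over 18 genes, were at 29609 to 35795 CPM in naive WT mice and at 11031 to 13684 CPM at day 7. Markers of recruited and interstitial macrophages, summed over 20 genes, went from 3174 to 4813 CPM in naive WT mice to 22214 to 25479 CPM at day 7. Of these genes 20 of 20 rose at day 7, where 20.2% of all genes were called higher. In bulk RNA such as this, fewer cells of a type and less RNA per cell cannot be told apart. Naive WT mouse 1 and day 7 WT mouse 1 stood apart. Relative to their group means, their genes of 5000 bases or more lay 0.35 and 0.42 below genes of 1500 bases or less on the log2 scale, against values of -0.19 to 0.31 in the other 22 mice. These 2 libraries also held the largest shares of the ribosomal RNA Rn45s, at 6 and 8.19% of counts. Knockout mouse 3 at day 14 and mouse 1 at day 21 lay nearest to the naive mice among the bleomycin mice on the leading principal component, which carried 57.5% of the variance. Their summed recruited-macrophage markers were the lowest of the bleomycin mice, at 16920 and 15317 CPM.

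In naive WT macrophages the abundance of the enzymes per kilobase of transcript spanned several orders of magnitude. Gapdh, which oxidises glyceraldehyde 3-phosphate, was highest at 2160 CPM per kilobase, followed by Aldoa (aldolase A) at 1208 and Pkm (pyruvate kinase) at 462. Ldha, the lactate dehydrogenase that favours lactate, stood at 345, and Eno1 (enolase) at 288. Gpi1, which isomerises glucose 6-phosphate, stood at 189. The glucose transporter Slc2a1 (GLUT1) and the hexokinases were far lower, with Slc2a1 at 7.84, Hk1 at 6.4, Hk2 at 8.06 and Hk3 at 16.6 CPM per kilobase. Slc2a3, Ldhb, Egln3 and Eno2 all lay below 0.1 CPM per kilobase. At day 7 in WT mice Gapdh and Aldoa were still the highest, at 2419 and 1051, and Eno1 had passed Pkm and Ldha in rank, at 678 against 650.2 and 442 CPM per kilobase.

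At day 7 against naive WT mice 20 of 33 were higher and 1 was lower at an adjusted p under 0.05 (edgeR quasi-likelihood test, Benjamini-Hochberg over all 12634 genes), against 20.2% of all genes called higher and 15.3% called lower. At day 14 there were 18 higher and 1 lower, against 18.7 and 13.4% of all genes. At day 21 there were 16 higher and 2 lower, against 18.8 and 13.7% of all genes. The median log2 fold change of the 33 genes was 0.61, 0.55 and 0.51 on the 3 days, where that of all genes tested lay no farther than 0.02 from 0. The 3 comparisons share the naive mice. In 16 of the 33 genes the 9 bleomycin WT mice all lay above the 3 naive WT mice, against 15.2% of all genes, and in 0 of 33 did they all lie below, against 11.2% of all genes.

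In KO mice 24 genes were higher and 2 lower at day 7 against naive KO mice, where 19.7% of all genes were called higher and 14.4% lower. At day 14 there were 12 higher and 1 lower, against 12 and 4.84% of all genes. At day 21 there were 14 higher and 0 lower, against 15 and 6.89% of all genes, with DESeq2 and limma-voom also calling 0 lower. A model of the naive and day 21 KO mice alone called 9 higher at day 21. The median log2 fold changes were 0.68, 0.26 and 0.36, with all genes again no farther than 0.02 from 0. The 9 bleomycin KO mice all lay above the 3 naive KO mice in 13 of 33 genes, against 11.7% of all genes, and below in 0 of 33, against 7.24% of all genes.

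**Figure D1:**
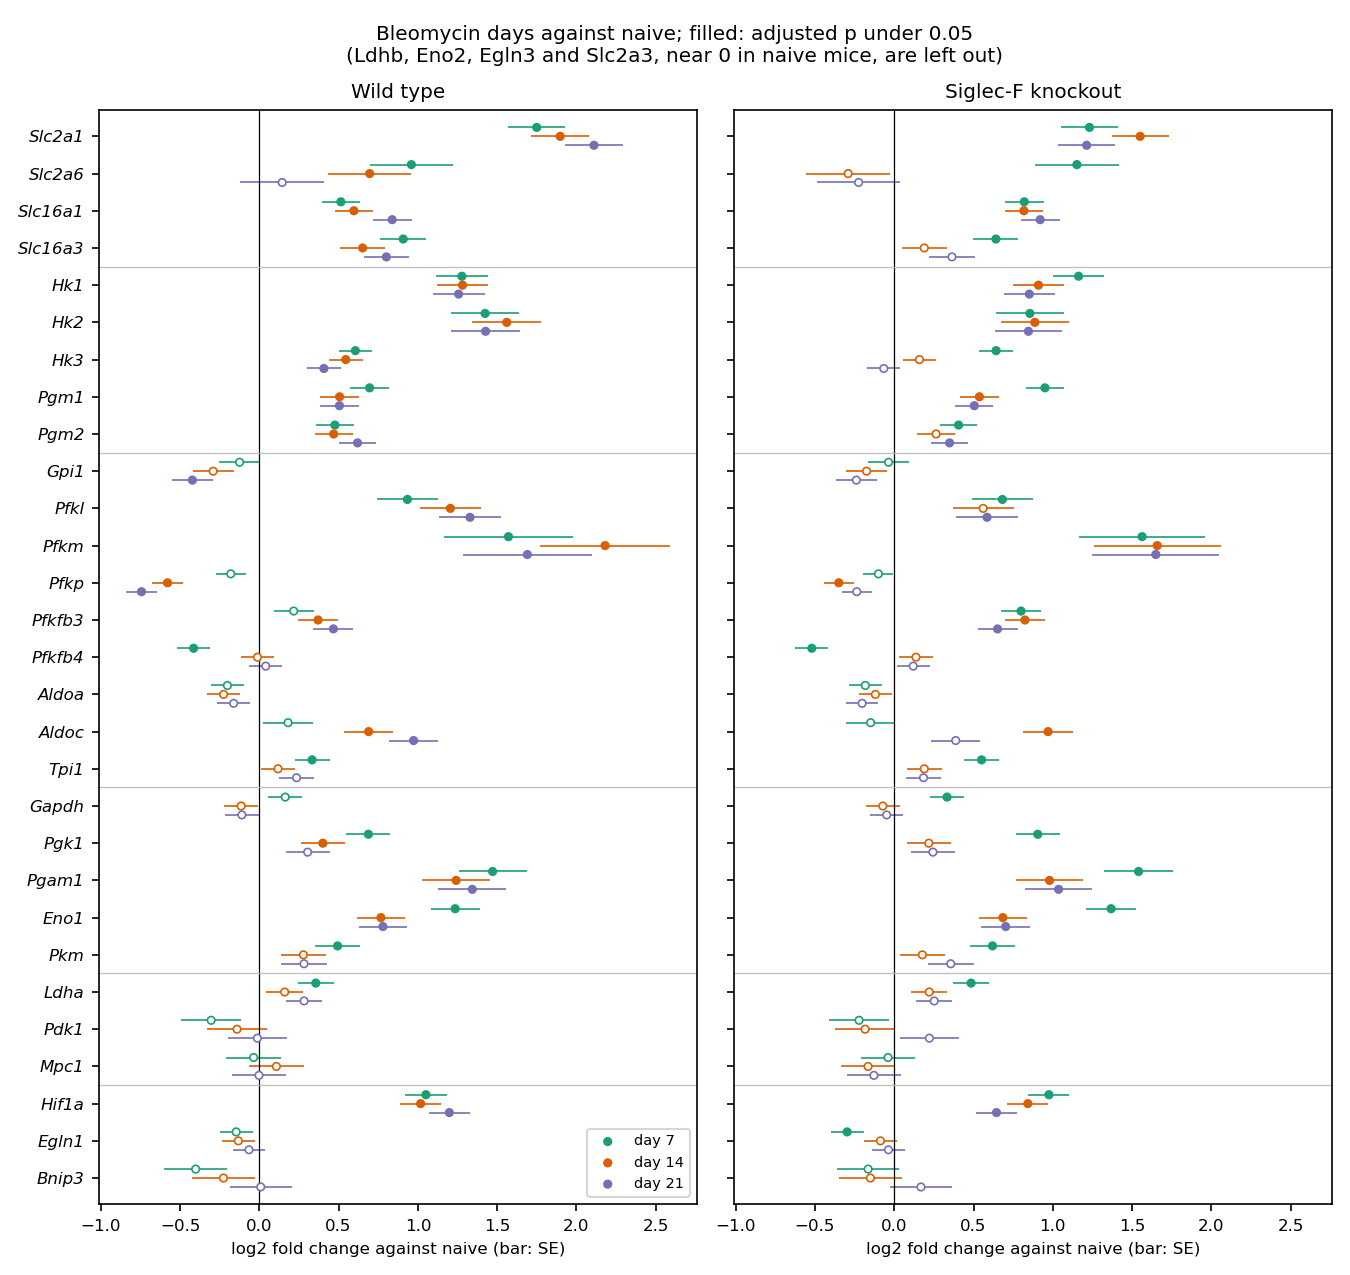
Log2 fold change of 29 genes (x axis) on days 7, 14 and 21 after bleomycin against naive mice of the same genotype, WT on the left and KO on the right, with bars of 1 standard error and filled points for an adjusted p under 0.05; 4 genes near 0 in naive mice are left out. In WT mice Slc2a1, Hk1, Hk2, Pfkl, Pfkm, Pgam1 and Hif1a lay to the right on every day, Pfkp moved left on days 14 and 21, and Gapdh, Aldoa, Mpc1, Pdk1 and Egln1 stayed within 0.31 of 0.

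The core of the HIF-1 binding site is ACGTG or GCGTG. Either core, read on both strands, was looked for in the 250 bases before the start site in RefSeq's table for GRCm38.p6, in which 32 of the 33 genes matched by symbol. At any of a gene's listed starts, 29 of the 32 genes held a core (90.6%), whereas 60.9% of the 9613 tested genes with an entry and 41.5% of all 27025 genes in the table held one. Gpi1, Tpi1 and Eno2 held none. A gene with several listed starts had more windows in which to hold a core, and the number of starts was not matched. Many of the listed genes are known HIF-1 targets, so the choice of the list itself favours a higher share. A match is a run of letters and not a bound site, and the E-box CACGTG, which overlaps ACGTG, was in 18.8% of the 32 genes and 9.9% of the tested genes. The upstream sequences of 5 genes are shown, with the cores in capitals on either strand, because genes with cores moved differently: Slc2a1 and Pgam1 rose on every day in WT mice, Pgk1 and Ldha rose less, and Bnip3 was not called on any day.
Slc2a1 (chr4:119108495-119108744, plus strand): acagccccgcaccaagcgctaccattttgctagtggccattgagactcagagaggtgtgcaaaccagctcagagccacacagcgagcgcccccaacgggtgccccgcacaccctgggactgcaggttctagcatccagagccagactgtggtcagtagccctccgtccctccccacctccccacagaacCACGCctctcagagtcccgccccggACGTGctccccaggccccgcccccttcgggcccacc
Pgam1 (chr19:41911621-41911870, plus strand): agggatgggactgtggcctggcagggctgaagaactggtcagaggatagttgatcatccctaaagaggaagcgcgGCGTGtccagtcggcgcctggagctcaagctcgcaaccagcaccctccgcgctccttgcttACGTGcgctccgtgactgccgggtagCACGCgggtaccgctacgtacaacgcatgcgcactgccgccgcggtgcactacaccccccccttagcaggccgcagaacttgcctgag
Pgk1 (chrX:106186850-106187099, plus strand): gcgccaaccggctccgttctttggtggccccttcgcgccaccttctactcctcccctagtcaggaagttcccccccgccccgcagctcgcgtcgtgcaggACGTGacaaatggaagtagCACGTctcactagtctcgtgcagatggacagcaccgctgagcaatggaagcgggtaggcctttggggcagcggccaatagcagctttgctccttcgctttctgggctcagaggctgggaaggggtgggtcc
Ldha (chr7:46845554-46845803, plus strand): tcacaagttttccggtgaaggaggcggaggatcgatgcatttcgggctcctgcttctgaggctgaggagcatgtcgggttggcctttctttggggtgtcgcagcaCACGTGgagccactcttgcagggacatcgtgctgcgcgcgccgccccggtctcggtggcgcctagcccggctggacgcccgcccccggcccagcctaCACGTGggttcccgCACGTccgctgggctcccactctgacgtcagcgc
Bnip3 (chr7:138909507-138909756, minus strand): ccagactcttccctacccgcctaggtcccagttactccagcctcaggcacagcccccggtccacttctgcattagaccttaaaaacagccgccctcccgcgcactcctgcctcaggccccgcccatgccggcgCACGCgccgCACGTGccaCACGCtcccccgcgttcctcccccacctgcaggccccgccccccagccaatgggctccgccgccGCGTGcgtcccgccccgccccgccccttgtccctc
In the Slc2a1 window the cores began 61 and 36 bases before the start, and in the Pgam1 window 175, 114 and 88 bases before it. The Ldha window held 2 E-boxes and the Bnip3 window 1, each of which reads as ACGTG on both strands.

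Of the 5 transporters, 5 rose at day 7 in WT mice, 4 at day 14 and 3 at day 21. The shares of all genes called higher on these days were 20.2, 18.7 and 18.8%. Slc2a1 (ENSMUSG00000028645.11, GRCm38 chr4:119108711-119137983), the main glucose importer of many cells, was at 23.7, 25.7 and 27.3 CPM in the naive WT mice. It was at 91.5, 78.4 and 88.2 CPM at day 7, 98.7, 89.0 and 98.2 at day 14 and 105, 104 and 123 at day 21. No bleomycin mouse came near the naive range, and its level was 3.36 times that of naive mice at day 7 and 4.32 times at day 21 (log2 2.11 ± 0.18 SE, adjusted p = 7.36e-08, edgeR). In KO mice Slc2a1 went from 32.3, 32.1 and 35.1 CPM to 84.2, 86.9 and 62.6 at day 7, 103, 107 and 82.6 at day 14 and 48.0, 94.0 and 88.8 at day 21. All 9 bleomycin KO mice were above the naive KO mice, with the lowest at day 21 in mouse 1.

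Slc2a3 (GLUT3), a transporter of high affinity, was scarce. Its mean was 0.255 ± 0.0986 CPM (SD, n = 3) in naive WT mice and 3.00 ± 0.164 at day 7. At day 14 the mice were at 0.355, 1.51 and 0.534 CPM. The day 7 rise was called in WT (11.4-fold, edgeR adjusted p = 2.55e-04) and in KO mice (10.5-fold, adjusted p = 2.66e-04), and no later day was called in either genotype. Slc2a6 (GLUT6), a transporter of inner membranes induced in activated macrophages, went from 21.9, 12.3 and 12.3 CPM in naive to 41.6, 23.0 and 25.3 in day 7 WT mice, where the groups did not overlap, and was back at 19.6, 11.3 and 20.1 by day 21. In KO mice it was at 13.1, 15.9 and 15.9 CPM when naive, 43.4, 33.8 and 22.7 at day 7 and 13.7, 12.5 and 10.6 at day 14. Its WT day 7 call held under 11 of 13 alternatives and its WT day 14 call under 8 of 13. In the WT groups at naive and day 7, mouse 1, the library short of long genes, was the highest of its group for Slc2a6.

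The 2 monocarboxylate transporters had smaller fold changes than Slc2a1. Slc16a3 (MCT4), which exports lactate, was at 72.4, 62.8 and 59.6 CPM in naive and 138, 108 and 119.6 in day 7 WT mice, 1.88-fold higher. Its KO mice went from 65.6, 84.2 and 76.0 to 119.7, 126 and 107 CPM at day 7, and to 100, 85.3 and 72.2 at day 14, which was not called. Slc16a1 (MCT1), which carries lactate and pyruvate in both directions, rose 1.43-fold by day 7 and 1.79-fold by day 21 in WT mice and 1.77-fold and 1.89-fold in KO mice. All 4 of these changes were called.

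Hexokinases trap glucose in the cell as glucose 6-phosphate, and all 3 rose in WT mice on every day. In KO mice Hk1 and Hk2 did so too, and Hk3 at day 7. Among all genes 20.2, 18.7 and 18.8% were called higher on days 7, 14 and 21 in WT mice, and 19.7, 12 and 15% in KO mice. Hk1 (chr10:62268855-62379908) was at 22.0, 27.7 and 24.3 CPM in naive and 52.8, 61.9 and 64.6 in day 7 WT mice, 2.42-fold higher (log2 1.28 ± 0.16 SE, adjusted p = 5.64e-06, edgeR). Hk2 (chr6:82725025-82774454), the inducible form, was at 29.0, 60.0 and 44.3 CPM in naive and 109, 139.9 and 145 in day 14 WT mice. Naive WT mouse 1 was the lowest for Hk2, and without it and the day 7 mouse 1 the Hk2 rise was still called on all 3 days. In KO mice Hk2 went from 66.2, 59.1 and 58.8 CPM to 102, 122 and 109 at day 7, 1.81-fold higher.

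Hk3 (ENSMUSG00000025877.14, chr13:55005985-55021385), a myeloid hexokinase, was at 59.3, 47.9 and 52.9 CPM in naive WT mice, 88.4, 72.0 and 83.3 at day 7, 76.5, 73.3 and 83.8 at day 14 and 69.0, 65.8 and 77.4 at day 21. All 9 bleomycin WT mice were above the naive ones. In KO mice it was at 52.1, 50.3 and 52.0 CPM when naive, 87.1, 85.6 and 68.4 at day 7, 55.1, 62.9 and 54.4 at day 14 and 50.05, 48.1 and 49.3 at day 21. The KO mice at day 21 lay just below the naive KO range. The phosphoglucomutases Pgm1 and Pgm2, which exchange glucose 1-phosphate and glucose 6-phosphate between glycogen and glycolysis, rose by 0.70 and 0.48 (log2) at day 7 in WT mice and were called on every WT day. Their 2 symbols have been exchanged between mouse annotation versions, so which enzyme each row counts is uncertain.

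In upper glycolysis, from glucose 6-phosphate to the triose phosphates, the 9 genes went in both directions. Phosphofructokinase commits fructose 6-phosphate to glycolysis, and its isozymes diverged. Pfkl (ENSMUSG00000020277.10, chr10:77986947-78010083), the liver form, was at 52.3, 47.5 and 49.2 CPM in naive WT mice, 92.8, 93.6 and 98.1 at day 7, 94.4, 122 and 127 at day 14 and 111, 125 and 138 at day 21. Its level was 1.91 times naive at day 7 and 2.51 times at day 21 (log2 1.33 ± 0.20 SE, adjusted p = 3.19e-05, edgeR), and no bleomycin WT mouse overlapped the naive ones. Pfkp (ENSMUSG00000021196.14, chr13:6579768-6648777), the platelet form, was at 210.1, 227 and 216 CPM in naive WT mice at 167, 195 and 215 at day 7, 145, 139 and 153 at day 14 and 136, 128 and 126 at day 21. It fell by 0.58 at day 14 and by 0.74 at day 21 on the log2 scale (adjusted p = 1.12e-04 and 6.88e-06, edgeR), with no overlap on either day. Pfkm, the muscle form, was a minor gene that went from 0.892 ± 0.0673 to 4.06 ± 1.84 CPM (SD, n = 3) at day 14 in WT mice, 4.53-fold higher, and was called on every day in both genotypes.

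In KO mice Pfkl went from 57.3, 52.3 and 52.6 CPM to 86.1, 96.1 and 78.2 at day 7, 105, 74.4 and 59.9 at day 14 and 55.6, 78.0 and 109.8 at day 21. At day 14 the change was not called (log2 0.56 ± 0.19 SE, adjusted p = 0.0508, edgeR), and at day 21 the call held under 5 of 12 alternatives. Day 21 mouse 1, the library nearest to naive, fell within the naive range for Pfkl. Pfkp in KO mice was at 182, 203 and 203 CPM when naive and 147, 149 and 165 at day 14, where it was called lower (log2 -0.35 ± 0.10 SE, adjusted p = 0.0143), and at 174, 182 and 144 at day 21, where it was not.

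The bifunctional enzymes Pfkfb3 and Pfkfb4 set the level of fructose 2,6-bisphosphate, which activates phosphofructokinase. Pfkfb4 was at 175, 184 and 176 CPM in naive WT mice, 127, 139.7 and 135 at day 7 and 185, 175 and 172 at day 14. It was the single gene lower at day 7 in WT mice (log2 -0.41 ± 0.11 SE, adjusted p = 0.00424, edgeR), without overlap, and lay within or near the naive range afterwards. KO mice were at 164, 201 and 179 CPM when naive, 103, 124 and 153 at day 7 and 198, 196 and 205 at day 14, with a day 7 log2 change of -0.52 ± 0.11 SE that was also called. Pfkfb3, a HIF-1 target, was at 51.2, 44.1 and 48.5 CPM in naive and 64.8, 65.0 and 68.9 in day 21 WT mice, and at 35.6, 33.04 and 32.7 in naive and 58.3, 65.6 and 52.5 in day 7 KO mice. The rise was called on all 3 days in KO mice and on days 14 and 21 in WT mice, with the WT day 14 call kept under 9 of 13 alternatives.

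Gpi1 was at 623, 489.8 and 519.7 CPM in naive and 419, 407 and 392 in day 21 WT mice, where it was called lower (log2 -0.42 ± 0.13 SE, adjusted p = 0.0171, edgeR). This call was lost (count of lower genes 1) without naive WT mouse 1 and also without day 21 WT mouse 3. Aldoa, at 2124, 1641 and 1712 CPM in naive and 1782, 1383 and 1598 in day 7 WT mice, was not called on any day in either genotype, with log2 changes of -0.23 to -0.12. Aldoc, the aldolase of brain, rose late: WT mice were at 107, 88.5 and 103 CPM when naive, 131, 97.3 and 110.1 at day 7 and 207, 167 and 212 at day 21, 1.96-fold higher than naive, and it was called at days 14 and 21. KO mice were at 111, 95.2 and 101 CPM when naive, 90.6, 93.2 and 93.6 at day 7, 179, 213 and 210.4 at day 14 and 116, 111 and 175 at day 21, and were called at day 14. Tpi1, the triose phosphate isomerase, was at 183, 151 and 163 CPM in naive and 219, 196 and 211 in day 7 WT mice. It rose 1.26-fold at day 7 in WT mice, a call kept under 8 of 13 alternatives, and 1.46-fold in KO mice.

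In lower glycolysis 4 of 6 genes rose at day 7 in WT mice, 3 at day 14 and 2 at day 21. The shares of all genes called higher on these days were 20.2, 18.7 and 18.8%. Pgam1 (ENSMUSG00000011752.7, chr19:41911923-41918660), phosphoglycerate mutase, was at 206, 171 and 177 CPM in naive WT mice and 545, 461.02 and 530.3 at day 7. It was at 391, 459 and 459 CPM at day 14 and 472, 416 and 518 at day 21. The rise was 2.77-fold at day 7 (log2 1.47 ± 0.21 SE, adjusted p = 2.46e-05, edgeR). KO mice went from 197, 178 and 184 CPM to 596, 586 and 442 at day 7, 467.5, 363 and 269.7 at day 14 and 224, 491 and 430.4 at day 21, all above the naive KO mice. Day 21 KO mouse 1 was close to them.

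Eno1 (ENSMUSG00000063524.13, chr4:150236721-150248879) had its highest level at day 7. WT mice were at 671, 535 and 546 CPM when naive, 1552, 1173 and 1399 at day 7 and 1050.3, 922 and 1035 at day 21, and KO mice at 567, 553 and 576 CPM when naive, 1560.5, 1498 and 1317 at day 7 and 682, 1145 and 933 at day 21. The day 7 rise was 2.35-fold in WT and 2.58-fold in KO mice (adjusted p = 4.53e-06 and 1.25e-06, edgeR). The near-identical retrogene Eno1b, at 6.37 ± 0.255 CPM in naive WT mice, rose 2.37-fold at day 7, and reads of the pair cannot be told apart with certainty.

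Pgk1, phosphoglycerate kinase, was at 196, 133 and 145 CPM in naive and 304, 223 and 237 in day 7 WT mice, 1.61-fold higher, and Pkm was at 1338, 1015 and 1018 and 1676, 1417 and 1651 CPM, 1.41-fold higher. Gapdh, often used as a reference gene, was at 3586, 2779 and 2835 CPM in naive and 3764, 2955 and 3585 in day 7 WT mice, which overlapped. In KO mice it was at 2985, 2793 and 2951 CPM when naive and 3949.9, 3519 and 3524 at day 7, without overlap and called higher (1.26-fold, adjusted p = 0.0192, edgeR). Mouse 1 was the highest of the naive and day 7 WT mice for each of Pgk1, Pkm, Gapdh, Ldha and Aldoa. Without these 2 libraries Pgk1, Pkm and Ldha were still called higher at day 7, while Pgm2 and Pfkm at day 7 and Gpi1 at day 21 were no longer called. Eno2, the neuronal enolase, had a mean of at most 0.4673 CPM in any group and 0 counts in the naive KO mice. Its KO level was at least 9.73-fold higher at day 7 and at least 9.21-fold higher at day 21 than the level that 3 counts over the naive group would give, and these 2 calls held under 6 and 5 of 11 alternatives.

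**Figure D2:**
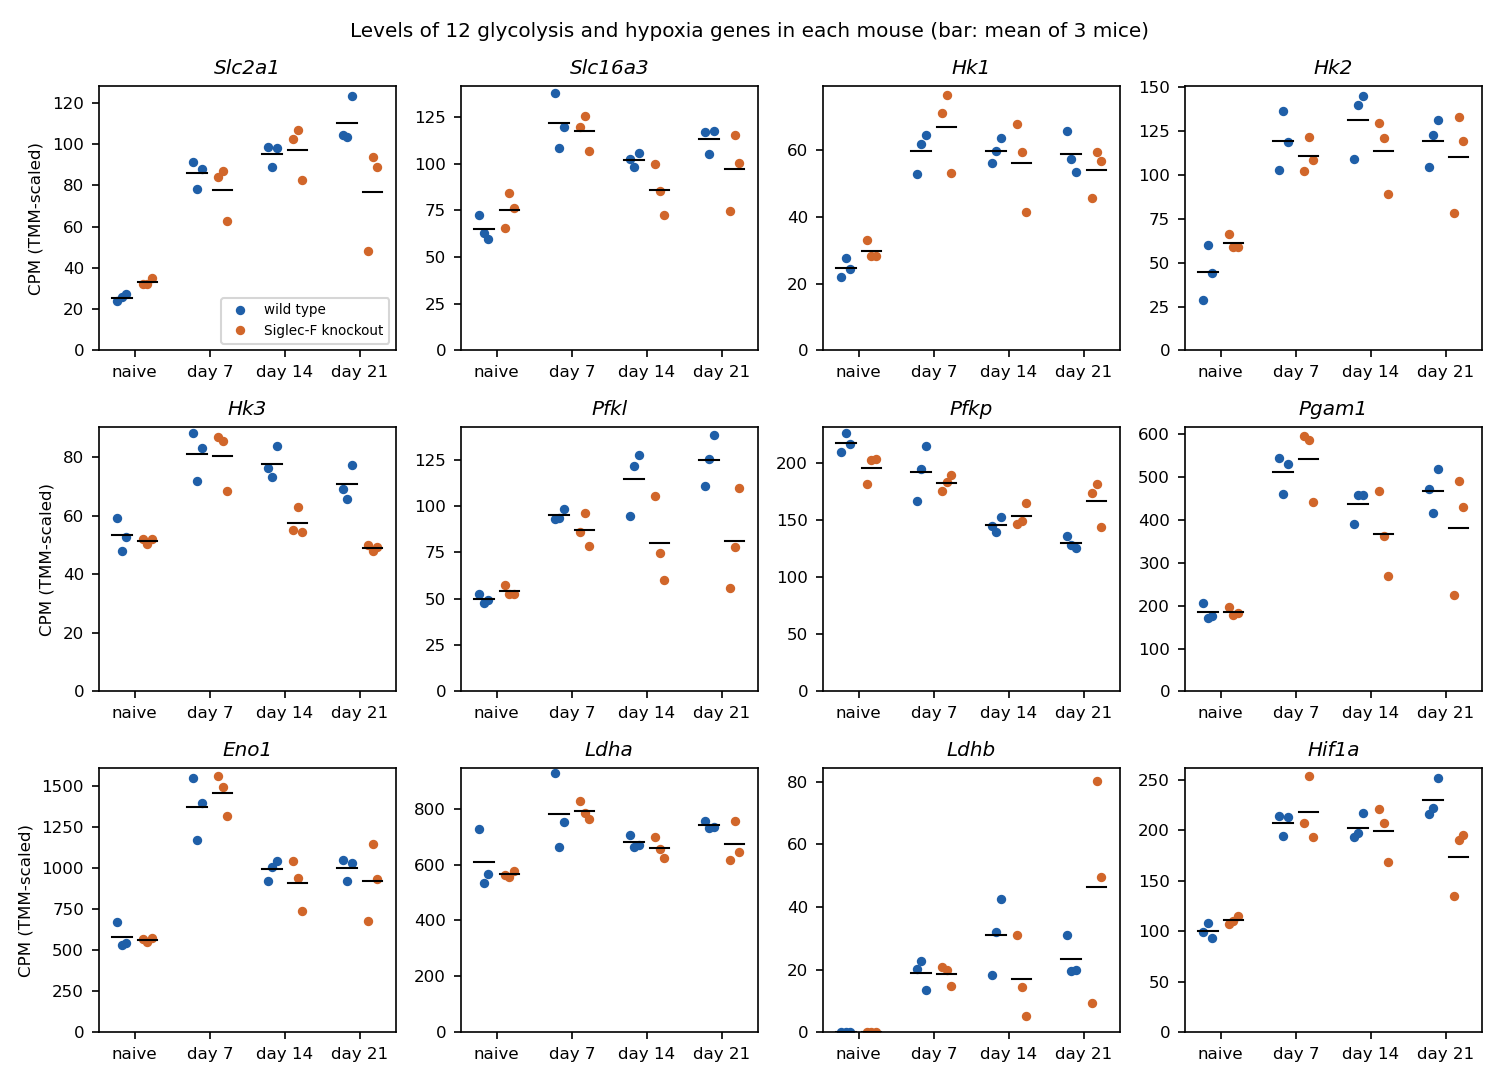
CPM (y axis, from 0) of 12 genes in each mouse by day, WT in blue and KO in orange, with a bar at the mean of 3 mice. In Slc2a1, Hk1, Hk2, Pgam1, Eno1, Ldhb and Hif1a every bleomycin mouse lay above the naive mice of its genotype, and Pfkp declined. For Hk3 the KO and WT mice did not overlap on days 14 and 21, though edgeR called neither day.

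Pyruvate can become lactate or enter the mitochondrion through the carrier that includes Mpc1, and Pdk1 slows its oxidation by blocking pyruvate dehydrogenase. Ldhb (ENSMUSG00000030246.11, chr6:142490249-142507957), the lactate dehydrogenase that favours pyruvate, showed the largest change of the 33 genes. It had 7 counts over the 3 naive WT mice and 8 over the 3 naive KO mice. The WT mice were then at 20.3, 22.9 and 13.6 CPM at day 7, 18.3, 32.1 and 42.4 at day 14 and 30.9, 19.6 and 19.9 at day 21. The ratio of summed CPM to naive was 302 at day 7 (exact binomial 95% interval 146 to 753), 491 at day 14 and 372 at day 21, and these intervals cover counting error only. Of the 7 naive WT counts 6 came from mouse 2, without which the fitted day 7 log2 change moved from 8.13 to 10.15. KO mice were at 20.9, 19.8 and 14.8 CPM at day 7, 30.9, 14.6 and 5.18 at day 14 and 9.23, 80.3 and 49.6 at day 21. The KO ratios were 297, 249 and 723. All 6 rises were called by edgeR and DESeq2 and under every left-out mouse, but not by limma-voom (adjusted p = 0.128 for WT day 7).

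Ldhb is abundant in lymphocytes. Cd3e, a part of the T cell receptor complex, had 0 counts in naive WT mice and 4.89 ± 1.41 CPM (SD, n = 3) at day 7, and Cd3d had 1.21 ± 0.878. Day 21 KO mouse 2 had the highest Ldhb, at 80.3 CPM, and also the highest Cd3e, at 11.9 CPM, Cd3d, at 5.65, and S100a8, a neutrophil gene, at 128 CPM. In the day 14 and day 21 groups of both genotypes the mouse highest for Ldhb was also highest for Cd3e. The day 7 groups differed from this. Of the day 7 WT mice, mouse 3 had the highest Cd3e, at 5.75 CPM, and the lowest Ldhb, at 13.6. Of the day 7 KO mice, mouse 1 had the lowest Cd3e, at 2.08 CPM, and the highest Ldhb, at 20.9. Of the 14 T and NK cell markers tested, 13 rose at day 7 in WT mice, and Cd2 fell, against 20.2% of all genes called higher and 15.3% lower. The summed level of the list was 401 to 448 CPM in naive and 203 to 207 CPM in day 7 WT mice, most of it Cd2, which was at 447, 400.4 and 412 CPM in naive and 153, 143 and 143 in day 7 WT mice. The part of other cells in the Ldhb values was not tested.

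Ldha (chr7:46841475-46855627) moved little. It was at 728, 535 and 565 CPM in naive and 926, 661 and 753 in day 7 WT mice, groups that overlapped, and the 1.28-fold rise (adjusted p = 0.0199, edgeR) was kept under 9 of 13 alternatives. In KO mice Ldha went from 562, 557 and 575 to 826, 783 and 762 CPM without overlap, 1.40-fold higher (adjusted p = 0.00259). Mpc1 and Pdk1 were not called on any day in either genotype. In WT mice at day 7 their log2 changes were -0.04 ± 0.17 and -0.30 ± 0.19 SE.

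Of the 4 genes of HIF-1 and oxygen sensing, Hif1a was the single gene called in WT mice. Among all genes 20.2, 18.7 and 18.8% were called higher in WT mice on days 7, 14 and 21. Hif1a (ENSMUSG00000021109.13, chr12:73901375-73947530) was at 98.9, 108 and 93.3 CPM in naive WT mice and at 214, 195 and 213 at day 7. It was at 193, 197 and 217 CPM at day 14 and 216, 222 and 251 at day 21. This was 2.07 times naive at day 7 and 2.29 times at day 21 (log2 1.20 ± 0.13 SE, adjusted p = 9.18e-07, edgeR). KO mice went from 107, 110.0 and 115 CPM to 207, 254 and 194 at day 7, 221, 207 and 168 at day 14 and 135, 190.3 and 195 at day 21, all above the naive KO mice. HIF-1 is governed mainly through the stability of its protein, which RNA does not show.

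Egln1, the prolyl hydroxylase that acts as the main oxygen sensor, was at 65.4, 64.4 and 59.0 CPM in naive and 54.9, 60.2 and 55.5 in day 7 WT mice and was not called. In KO mice its day 7 fall by 0.30 on the log2 scale was called (adjusted p = 0.0312, edgeR), under 8 of 12 alternatives. Egln3, a HIF-1 target that feeds back on it, reached at most 1.17 CPM in any mouse. Its KO day 7 rise, to 1.17, 0.554 and 0.0276 CPM, was called under 5 of 11 alternatives besides the main test. Bnip3, a mitophagy receptor and one of the best-known hypoxia genes, was at 18.3, 14.5 and 14.6 CPM in naive WT mice and 13.7, 10.8 and 11.4 at day 7. It was at 13.9, 13.4 and 13.2 CPM at day 14 and 15.0, 16.3 and 16.4 at day 21. None of its 6 comparisons with naive mice was called, and the WT day 7 estimate was -0.40 ± 0.20 SE on the log2 scale.

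The isozyme makeup within families shifted along with these levels, computed as shares of CPM per kilobase. Pfkl made up 20.1 ± 1.4% of phosphofructokinase RNA in naive WT mice (SD, n = 3), 35.1 ± 2.17% at day 7, 45.4 ± 3.41% at day 14 and 50.7 ± 3.74% at day 21. In KO mice the Pfkl share was 23.4 ± 2.07% when naive, 34.0 ± 2.74% at day 7, 35.6 ± 7.56% at day 14 and 34.2 ± 9.79% at day 21. At day 21 Pfkl exceeded Pfkp in 2 of the 3 WT mice, and their mean shares, with Pfkp at 47.8 ± 3.67%, lay within 1 SD of each other. In day 21 KO mice Pfkp made up 64.1 ± 10.2%. Among the hexokinases Hk3 went from 53.7 ± 8.76 to 37.2 ± 1.73% between naive and day 21 WT mice, and Hk2 from 25.7 ± 7.57 to 36.8 ± 3.23%. Slc2a1 went from 52.7 ± 9.73 to 80.8 ± 4.19% of the 3 glucose transporters. Ldhb remained the minor lactate dehydrogenase, at 0.017% in naive WT mice and 3.25 to 5.81% in the WT bleomycin groups, and 8 ± 5.44% in day 21 KO mice. These shares rest on 1 principal transcript length per gene and are descriptions without a test.

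**Figure D3:**
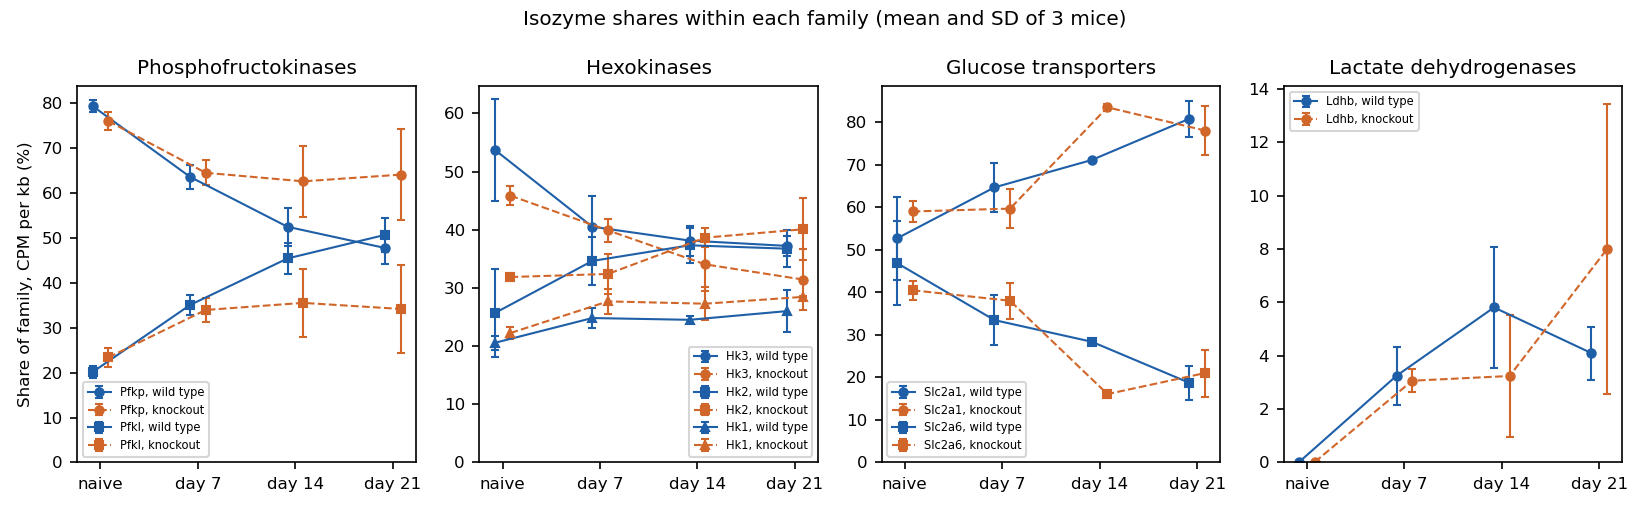
Share of each isozyme in its family (y axis, percent of CPM per kilobase) by day (x axis), WT solid blue and KO dashed orange, as mean and SD of 3 mice; Pfkm, Slc2a3 and Ldha are not drawn. The mean Pfkl and Pfkp shares of WT mice meet within their SDs at day 21, Pfkp stays the larger mean share in KO mice, and the Hk3 share falls while Hk2 and Slc2a1 gain.

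Between day 7 and the later days 2 of 33 genes changed in WT mice at day 14, against 5.85% of all genes, and 5 at day 21, against 11.6% of all genes. At day 14 Pfkp was lower (log2 -0.40 ± 0.10 SE, adjusted p = 0.016, edgeR) and Pfkfb4 higher (0.40 ± 0.11, adjusted p = 0.027). Neither was called without WT day 7 mouse 3 or without WT day 14 mouse 1. At day 21 Aldoc and Pfkfb4 were higher than at day 7, and Pfkp, Slc2a3 and Slc2a6 lower. The Aldoc, Pfkfb4 and Pfkp calls held under 13 of 13 alternatives. Those of Slc2a3 and Slc2a6 held under 6 and 4 of 13, and that of Slc2a3 was lost whichever mouse was left out. In KO mice 12 genes changed between day 7 and day 14, against 15% of all genes, 2 upward and 10 downward, and 10 between day 7 and day 21, against 14.9% of all genes, 2 upward and 8 downward. The 2 upward genes were Aldoc and Pfkfb4 on both days. Eno1 fell by 0.68 at day 14 (log2, adjusted p = 0.00482, edgeR) and Pgk1 by 0.69 (adjusted p = 0.00218). Hk3, Slc2a3, Slc2a6, Gapdh, Tpi1 and Pgm1 were lower on both later days, and Pkm and Slc16a3 at day 14. Without KO day 7 mouse 1 the counts were 7 and 5, and in models of the compared groups alone 7 and 3. Day 7 was also when cell cycle genes were raised. In WT mice 16 of 26 were higher than in naive mice, against 20.2% of all genes. In KO mice 19 of 26 were higher, against 19.7% of all genes. The part of the cell cycle genes in the day 7 levels was not tested.

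The study set knockout against wild type at each stage. None of the 33 genes was called between KO and WT naive mice by edgeR, against 0.546% of all genes. DESeq2 called 1 and limma-voom 0. At day 7 edgeR called 0, against 0.00792% of all genes, and DESeq2 and limma-voom called 0. At day 14 edgeR called 0, against 0.135% of all genes, DESeq2 2 and limma-voom 0. At day 21 edgeR called 0, against 0.095% of all genes, DESeq2 2 and limma-voom 1. For the mean over the 3 bleomycin days, 1 of 33 was called, against 0.507% of all genes.

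That gene was Hk3. Over the bleomycin days it was lower in KO than in WT mice (log2 -0.33 ± 0.06 SE, adjusted p = 0.015, edgeR), and the call was kept when any 1 of the 18 mice was left out. Across all 25 alternatives, which include DESeq2 and limma-voom, the adjusted p of this difference reached 0.0492 at most. By day the log2 difference was -0.05 ± 0.11 SE in naive mice, -0.02 ± 0.10 at day 7, -0.44 ± 0.11 at day 14 and -0.53 ± 0.11 at day 21. By edgeR neither day 14 (adjusted p = 0.111) nor day 21 (adjusted p = 0.0576) was called. At day 14 the KO mice reached 62.9 CPM and the WT mice began at 73.3, and at day 21 the KO mice reached 50.05 and the WT mice began at 65.8. DESeq2 called Hk3 at day 14 and day 21 (adjusted p = 0.0182 and 0.00238), and limma-voom at day 21 (0.0467).

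The Pfkl estimate over the bleomycin days was lower in KO mice (log2 -0.42 ± 0.11 SE) without passing the threshold (adjusted p = 0.0982, edgeR). Without day 14 KO mouse 1 its adjusted p was 0.0171 and without day 21 KO mouse 3 it was 0.0186, each of these being the KO mouse with the highest Pfkl on its day. At day 21 Pfkp differed the other way (log2 0.36 ± 0.10 SE, adjusted p = 0.151), with KO mice at 174, 182 and 144 CPM and WT mice at 136, 128 and 126. Slc2a6 at day 14 differed by a log2 value of -1.03 ± 0.27 SE (adjusted p = 0.137), where KO mice were at 13.7, 12.5 and 10.6 CPM and WT mice at 26.3, 22.9 and 25.6. In naive mice the Pfkfb3 estimate was lower in KO mice (log2 -0.50 ± 0.13 SE, adjusted p = 0.088), at 35.6, 33.04 and 32.7 CPM against 51.2, 44.1 and 48.5 in WT mice, without overlap. DESeq2 called all 4 of these differences, with adjusted p values of 0.0223 for Pfkl, 0.0362 for Pfkp, 0.0254 for Slc2a6 and 0.0194 for Pfkfb3. They did not pass edgeR's test, and their estimates with errors do not show that the genotypes were alike.

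**Figure D4:**
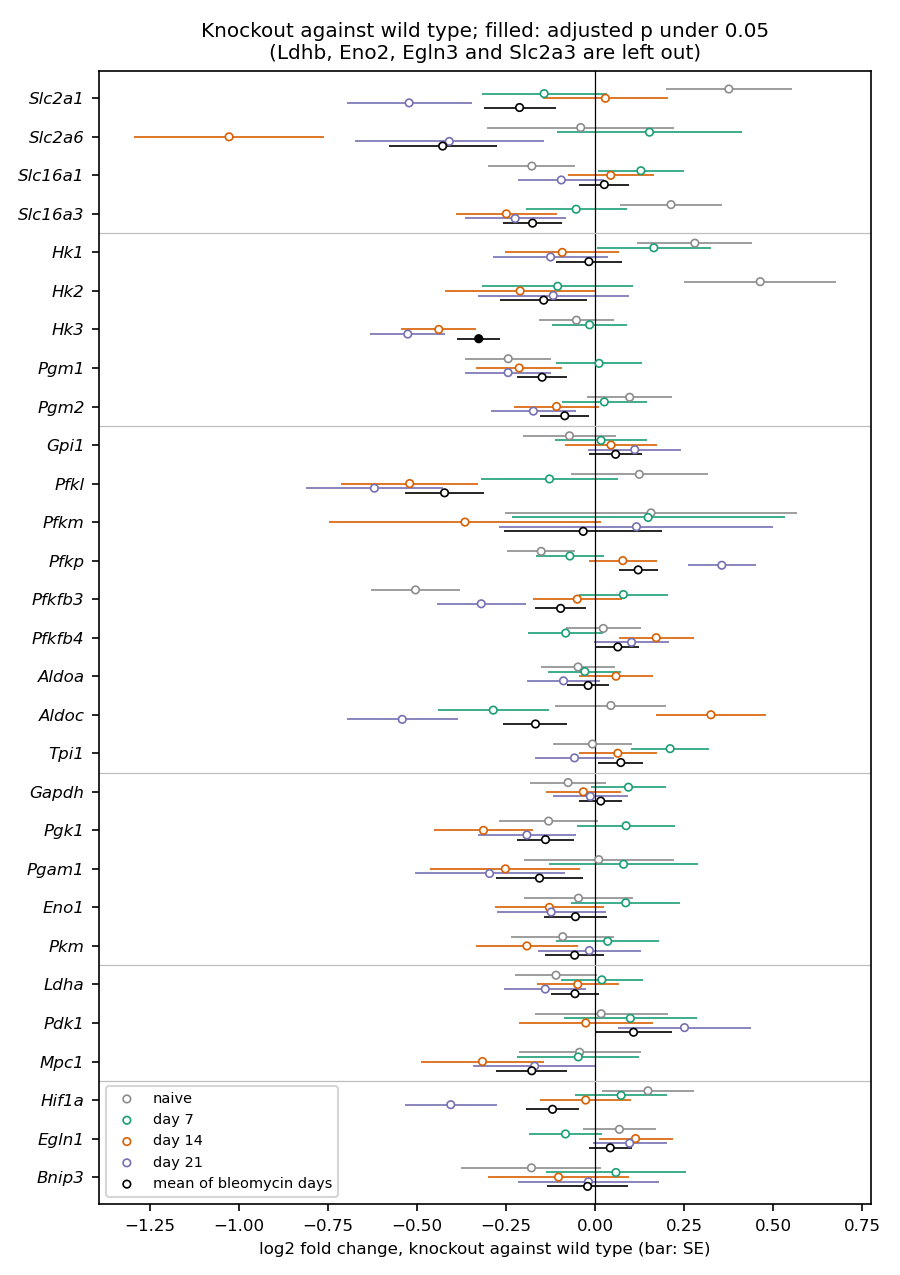
Log2 fold change of KO against WT mice (x axis) for 29 genes when naive, on each bleomycin day and for the mean of the 3 bleomycin days, with bars of 1 standard error and a filled point for an adjusted p under 0.05. Hk3 for the mean of bleomycin days is the single filled point, at -0.33.

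The response to bleomycin was also compared between genotypes, as the change from naive in KO mice minus that in WT mice. By edgeR 0 of 33 genes differed at day 7, against 0.00792% of all genes, 0 at day 14, against 0.332%, and 0 at day 21, against 0.332%. DESeq2 called 0, 0 and 2 on these days, and limma-voom 0 on each day. The smallest adjusted p values at day 21 were those of Pfkp (log2 0.51 ± 0.13 SE, adjusted p = 0.113) and Slc2a1 (-0.90 ± 0.25, adjusted p = 0.123), the 2 genes that DESeq2 called. The Slc2a1 value rests in part on naive mice, which were at 25.6 ± 1.78 CPM in WT and 33.2 ± 1.66 in KO (SD, n = 3). KO mice also varied more on the later days: their summed recruited-macrophage markers ranged from 15317 to 50086 CPM at day 21, against 32232 to 36730 in WT mice, and their resident markers from 18413 to 28660, against 19674 to 22544. The lowest recruited-marker mouse, KO day 21 mouse 1, was also the lowest of its group for Slc2a1, Slc16a3, Hk1, Hk2, Pfkl, Pgam1, Eno1, Ldhb and Hif1a. It was the highest of its group for Hk3, at 50.05 CPM against 48.1 and 49.3, and for the sum of the 9 upper glycolysis genes, at 2951 CPM against 2699 and 2737. The part of cell makeup in these differences was not tested.

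Genes of neighbouring pathways moved in both directions. Of 32 other HIF-1 pathway genes and targets tested, 7 were higher and 6 lower at day 7 in WT mice, 9 and 3 at day 14, and 9 and 2 at day 21. The shares of all genes called higher and lower on the 3 days were 20.2 and 15.3%, 18.7 and 13.4%, and 18.8 and 13.7%. Rbpj, a Notch pathway factor, went from 49.4 ± 5.18 to 146 ± 9.56 CPM (SD, n = 3), and Ndrg1, a stress-response gene, rose 2.52-fold. Angptl4, a lipase inhibitor, fell from 148 ± 32.8 to 72.5 ± 4.51 CPM. Epas1, which encodes the related factor HIF-2 alpha, was at 19.2, 40.4 and 34.4 CPM in naive and 229, 223 and 262 in day 21 WT mice, 7.57-fold higher (adjusted p = 1.33e-04, edgeR). Vhl rose 1.82-fold at day 7, and Arnt was not called on any day, with log2 changes of 0.03 to 0.13 in WT mice. Vegfa, the endothelial growth factor, was called higher on every day in both genotypes but had a mean of at most 1.38 CPM.

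Of 18 genes of the tricarboxylic acid cycle 3 were higher and 3 lower at day 7 in WT mice, 1 and 5 at day 14, and 0 and 6 at day 21. Of all genes, 20.2% were called higher and 15.3% lower at day 7, 18.7 and 13.4% at day 14, and 18.8 and 13.7% at day 21. The succinate dehydrogenase genes Sdhd and Sdhb both rose 1.34-fold at day 7, and Suclg2 and Idh3g fell by 0.55 and 0.40 on the log2 scale. Of 12 genes of the pyruvate dehydrogenase complex and its regulators 1 was higher and 4 were lower at day 7, and 0 and 3 at days 14 and 21. Pdk4, an inhibitor of the complex raised by fatty acids, fell from 20.2 ± 3.58 to 4.85 ± 2.02 CPM at day 7 in WT and from 36.8 ± 7.59 to 4.39 ± 1.06 in KO mice. Mpc2, the partner of Mpc1 in the pyruvate carrier, fell by 0.77 at day 7 and 0.82 at day 21 in WT mice (log2), and Pdp2, a phosphatase of the complex, rose 1.48-fold at day 7.

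Of 10 pentose phosphate genes 2 were higher and 2 lower at day 7 in WT mice, against 20.2 and 15.3% of all genes. H6pd was 1.61-fold and Rpe 1.23-fold higher, and Taldo1 and Pgls were lower by 0.57 and 0.48 (log2). G6pdx, the rate-limiting step of that pathway, was at 257 ± 24.3 CPM in naive and 266 ± 10.3 in day 7 WT mice and was not called. Of 18 gluconeogenesis and glycogen genes 3 were higher and 2 lower at day 7, 7 and 4 at day 14, and 5 and 4 at day 21. The shares of all genes called higher and lower on these days were 20.2 and 15.3%, 18.7 and 13.4%, and 18.8 and 13.7%. Pcx, pyruvate carboxylase, and Pygl, a glycogen phosphorylase, fell by 1.34 and 0.72 at day 7 (log2), while Ppp1r3b, which targets a phosphatase to glycogen, and Pygb rose 1.47-fold and 1.46-fold. Of 17 other glycolysis isozymes and accessory genes 3 were higher and 4 lower at day 7, against 20.2 and 15.3% of all genes. They included the transporters Slc16a6, 2.51-fold higher, and Slc2a8 and Slc16a10, lower by 0.80 and 0.68 (log2). Bsg, the chaperone of the monocarboxylate transporters, was called higher at days 14 and 21 in WT mice, 1.22-fold and 1.21-fold.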

How the data were processed

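RNA of lavage macrophages from 24 mice was measured by mRNA sequencing. The deposited table holds expected counts per gene made by the authors, with 1 column per mouse; 3.11 to 3.85% of values were not whole. The labels list 2 runs per mouse and do not say whether a column sums them. Per the submitters' processing notes the build is mm10 and bcl2fastq, DESeq2 1.42.0 and limma 3.58.1 were used. The labels name no aligner or counter and no use of strand, so near-identical copies (Eno1 and Eno1b; pseudogenes of Gapdh, Pgk1, Aldoa, Pgam1 and Tpi1) and overlapping genes are uncertain. A further 24 value columns, which match no sample here, were not used.

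Counts were rounded and fitted in edgeR 4.0.16 (R 4.3.3) with TMM factors, filterByExpr (minimum count 10, minimum total 15) and the quasi-likelihood test over all 8 groups; adjusted p-values run over all 12634 genes. CPM are TMM-scaled. Floors are 3 counts over a group. The scripts were tested on simulated data. Per-length values use 1 principal transcript per gene of GENCODE M21, and promoters are RefSeq's. The 33 genes and the pathway and marker lists were chosen with earlier results of these data known. Values were given by mouse for genes called between genotypes, for the highest and lowest called change of each role and for genes of at least 100 CPM in some group; from each other list, the 2 highest and 2 lowest called at WT day 7 with at least 5 CPM were named, plus a fixed panel; 1 gene that this rule takes is not reported here.

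Alternatives were DESeq2 1.42.0, limma-voom, RLE factors, no filter, models fitted on just the groups compared, a block for the mouse number, each mouse left out and, chosen after seeing the data, naive and day 7 WT mouse 1 left out together. Mice of a group differed beyond counting noise, and none was merged.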

Additional observations from a re-analysis of the deposited data

How the results depend on the processing

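Single-gene values were recomputed for each comparison that called the gene and, between genotypes, for genes with an unadjusted p under 0.05. Of 176 such values, RLE factors and no filter each ended 1 call, limma-voom ended 11 and added 1, and DESeq2 added 8 and ended 0. Models of the compared groups alone ended 23 calls of 173 values, with fewer mice to estimate the spread, and leaving out both WT libraries short of long genes ended 6 of 89. Of these values 0 reversed direction under any alternative run. Neither scaling moved the median of all genes by over 0.1 (log2). Leaving out one mouse gave 17 to 21 genes higher at WT day 7, 15 to 20 at day 14 and 16 to 19 at day 21, and in KO mice 20 to 24, 12 to 14 and 11 to 18.

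Counts of called genes moved by over 1.5 times in the following cases, and the cause was not tested. DESeq2 called 1 gene between KO and WT naive mice, 2 at day 14, 2 at day 21, 2 for the mean of bleomycin days, 2 for the day 21 response difference and 5 for WT day 14 against day 7. Limma-voom called 1 at day 21 between KO and WT mice. Models of the compared groups alone gave 9 higher at KO day 21, 1 for WT day 14 against day 7, and 7 and 3 for KO day 14 and day 21 against day 7. Without the 2 WT libraries 1 gene was lower at WT day 21. When one mouse was left out, lower genes ranged from 1 to 2 at WT day 7, WT day 21 and KO day 7, and from 0 to 1 at KO day 14 and day 21. Between KO and WT mice the range was 0 to 1 at day 14, 0 to 3 at day 21 (3, Pfkl, Pfkp and Aldoc, without KO day 21 mouse 3) and 1 to 2 for the mean of bleomycin days. The day 21 response difference ranged from 0 to 1. Against day 7 the range was 0 to 4 at WT day 14 (4 without WT day 7 mouse 2), 3 to 7 at WT day 21 (3 without WT day 7 mouse 3 or any 1 of the day 21 mice), 7 to 13 at KO day 14 (7 without KO day 7 mouse 1 or KO day 14 mouse 2) and 5 to 13 at KO day 21 (5 without KO day 7 mouse 1).

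Mice of different groups share only a number. With the mouse number as a replicate block, WT day 14 against day 7 had 4 calls in place of 2, and the call of 176 of the 176 single-gene values was as without it. The mean correlation of deviations from group means was 0.0149 over 84 same-number pairs, 21.4% of them above 0.1, and -0.00684 for other numbers, and 10 of 24 mice correlated best with a mouse of their own number. Counts near 0, as for Eno2, Egln3 and Ldhb in naive mice, limit the size of their fold changes.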

Other observations

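Markers of macrophage recruitment changed widely. Spp1 (osteopontin) was at 428, 321 and 400.4 CPM in naive WT mice and 4008, 3217 and 3078 at day 7, and reached 15474, 15919 and 17922 at day 21. In KO mice it was at 15857, 11151 and 5257 CPM at day 14 and 2994, 14931 and 16594 at day 21, so the KO mice of a late group lay far apart. Mmp12, a macrophage elastase, rose 31.2-fold at day 14 in WT mice and 18.0-fold in KO mice. The mitotic genes Cenpa and Birc5 rose 2.39-fold and 2.20-fold at day 7 in WT mice and were not called at days 14 or 21 in either genotype. Of the 26 cell cycle genes 8 were lower at WT day 14 and 9 at WT day 21, against 13.4 and 13.7% of all genes. In KO mice 7 and 13 were lower, against 4.84 and 6.89% of all genes. Mki67 had no call on any day, and the 2 WT libraries short of long genes held 17.0 and 17.8 CPM of it.

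Genes listed as markers of other cells that a lavage can hold differed widely in level. In naive WT mice Cd2 of the T and NK list averaged 420 CPM, while 7 of its 15 genes had 0 counts. Vwf of the endothelial and fibroblast list averaged 105 CPM, while 7 of its 10 genes had 0 counts. At WT day 7 20.2% of all genes were called higher and 15.3% lower. Of 11 neutrophil markers 5 were higher and 2 lower at WT day 7. Their list summed to 246 to 297 CPM in naive WT mice, 215 to 262 at day 7 and 304 to 346 at day 21. Within it S100a8 was at 6.06, 4.29 and 4.30 CPM in naive and 54.8, 51.7 and 56.4 in day 21 WT mice. Camp and Ngp of the same list had 0 counts in naive, day 7, day 14 and day 21 WT mice. The highest gene of the list was Trem1 in naive WT mice, at 72.1 CPM, and Mmp8 in day 21 WT mice, at 142 CPM. Of 10 dendritic cell markers 8 were higher and 1 lower at WT day 7, and their summed level went from 28.1 to 32.0 CPM in naive to 105 to 118 CPM. Most of this sum was Bst2, which averaged 26.5 CPM in naive and 97.5 CPM in day 7 WT mice. Among the 10 genes, 8 averaged under 1 CPM in naive WT mice and 2 at day 7. Of 13 lung epithelial markers 6 were higher and 2 lower, with Sftpc, the surfactant protein of alveolar type 2 cells, at 1.32, 0.155 and 85.3 CPM at day 7. The epithelial list summed to 246 to 283 CPM in naive and 131 to 292 in day 7 WT mice, and Cdh1, its highest gene, averaged 137 and 79.3 CPM. Of 4 B and plasma cell markers 2 were higher, as were 1 of 5 erythroid and 1 of 6 endothelial and fibroblast markers. The 8 B and plasma cell genes of the table each averaged under 1 CPM at WT day 7. Cd79b was the highest of them, at 0.481 CPM, and 3 had 0 counts. Fbp1, the gluconeogenic enzyme, did not pass the filter and was below 1 CPM in every mouse. The part of these cells in the metabolic genes was not tested.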
